A study of Mus musculus with 18 samples.

Results

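WNT ligands are secreted glycoproteins that bind Frizzled receptors on neighbouring cells. With LRP5 or LRP6 as co-receptor the signal stabilises beta-catenin, while WNT5A and WNT11 mostly signal without it. Secreted antagonists limit the signal in the extracellular space: the SFRP family, FRZB and WIF1 bind the ligands themselves, and the DKK family includes antagonists of the LRP co-receptors. In the heart the pathway is known from chamber formation and from the scarring that follows injury or pressure load.

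The genes described here are the mouse WNT ligands, the Frizzled receptors and the secreted antagonists, taken by gene symbol from the deposited tables: 19 ligands, 10 receptors and 10 antagonists, 39 of 51435 genes. They were followed in poly(A) RNA-seq of the left ventricle of 18 mice, 9 WT and 9 WWP2Mut/Mut. WWP2Mut/Mut mice carry a germline CRISPR deletion of 4 bp in exon 2 of Wwp2, an E3 ubiquitin ligase gene, on the C57BL/6J background. The deletion disrupts the full-length and N-terminal isoforms and leaves the C-terminal isoform, and WT littermates came from the same heterozygous crosses. Every mouse received angiotensin II (AngII, 500 ng/kg/min) for 28 days from 8 weeks of age, so no library here is from an untreated heart. Library totals were 24566994 to 37451087 counts. The mutated gene itself had a TPM (transcript level per gene length and library size) of 3.83 to 6.01 in WT mice and 1.19 to 3.00 in WWP2Mut/Mut mice, without overlap.

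The left ventricle libraries were not alike in chamber markers. In 5 mice (WT 43-3, WT 45-1, WT 84-2, WWP2Mut/Mut 8-2 and WWP2Mut/Mut 22-3) Myl7, the atrial myosin light chain, reached 48.7 to 338 TPM, while the other 13 mice had at most 7.14. Of the 4 atrial markers examined, Myl7, Myl4 and Sln were higher in all 5 of these mice than in any other mouse, and Bmp10 stayed at or below 0.03 TPM in every mouse. The summed TPM of the 4 markers was 93.1 to 628 in the 5 mice and 1.80 to 17.1 in the others. By lane, 3 of the 5 (WT 43-3, WT 84-2 and WWP2Mut/Mut 8-2) were among the 4 mice of lane 3. Where the genotype difference of a member is given and moved by 0.1 or more on the log2 scale without these mice, it is given both ways.

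Among the 21 genes with a median of at least 0.1 TPM, the antagonists Sfrp5, Dkk3 and Wif1 had the highest coefficients of variation over the 18 mice (138%, 133% and 93.3%). Among the 16 genes that exceeded 1 TPM in 2 or more mice, Frzb and the receptor Fzd1 had the highest correlation with fibroblast transcripts both on TPM and on counts scaled by library size (CPM). The 250 bases upstream of the RefSeq transcription start are shown for those of them in the promoter table, so that the genes that moved together can be compared. RefSeq promoters were found for 27 of the 39 genes and none for Dkk3. Wnt9b is shown as well, since its level was also higher in all 5 mice. The window of Wnt9b lies inside the annotated gene (chr11:103727362-103775272), while the other windows adjoin the 5′ end of their genes. Sequences are from GRCm38.p6, read 5′ to 3′ on the strand of the gene. Capitals mark the letters AGATAA (the GATA factor motif) or CTTTGA (the TCF/LEF motif of beta-catenin signaling) on either strand. No 2 matches overlapped.
Sfrp5, minus strand, chr19:42202253-42202502: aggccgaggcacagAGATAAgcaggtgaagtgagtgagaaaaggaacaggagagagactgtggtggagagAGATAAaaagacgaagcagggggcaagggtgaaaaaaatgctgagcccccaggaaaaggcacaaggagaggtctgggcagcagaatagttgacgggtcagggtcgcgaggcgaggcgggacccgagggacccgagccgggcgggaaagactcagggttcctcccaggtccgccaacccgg
Wif1, plus strand, chr10:121033754-121034003: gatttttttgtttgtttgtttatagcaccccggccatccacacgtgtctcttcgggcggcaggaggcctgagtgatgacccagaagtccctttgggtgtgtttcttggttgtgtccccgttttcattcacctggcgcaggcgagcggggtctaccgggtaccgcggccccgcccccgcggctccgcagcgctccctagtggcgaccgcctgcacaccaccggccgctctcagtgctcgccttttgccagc
Wnt9b, minus strand, chr11:103749822-103750071: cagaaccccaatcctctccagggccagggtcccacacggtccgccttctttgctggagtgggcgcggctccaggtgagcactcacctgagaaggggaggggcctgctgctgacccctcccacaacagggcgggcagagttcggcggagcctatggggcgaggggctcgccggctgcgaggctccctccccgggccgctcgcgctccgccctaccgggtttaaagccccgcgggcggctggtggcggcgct
Frzb, minus strand, chr2:80447397-80447646: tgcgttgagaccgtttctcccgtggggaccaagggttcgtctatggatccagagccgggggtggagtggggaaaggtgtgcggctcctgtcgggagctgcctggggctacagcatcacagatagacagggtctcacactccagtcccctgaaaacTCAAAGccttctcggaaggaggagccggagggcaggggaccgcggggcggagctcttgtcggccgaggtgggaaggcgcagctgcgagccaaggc
Fzd1, minus strand, chr5:4758217-4758466: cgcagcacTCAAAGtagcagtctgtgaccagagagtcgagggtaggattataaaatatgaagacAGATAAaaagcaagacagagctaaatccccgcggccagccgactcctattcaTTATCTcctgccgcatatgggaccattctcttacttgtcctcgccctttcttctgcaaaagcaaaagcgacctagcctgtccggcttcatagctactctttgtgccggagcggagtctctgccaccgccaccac

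The letters AGATAA occurred in the windows of Sfrp5 and Fzd1 and in 9.99% of all 32851 windows of this length, and CTTTGA in those of Frzb and Fzd1 and in 13.8% of all windows. The T-box letters GGTGTGA, found in 3.33% of all windows, were in none of these 5. The windows of Sfrp5, Wif1 and Wnt9b therefore shared none of the motifs searched. A match of letters is a description only and does not show binding.

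Most of the family had a median below 1 TPM in these ventricles. Over all 18 mice, 9 of the 39 genes had a median of at least 1 TPM, 12 had a median between 0.1 and 1 TPM, and 18 lay below 0.1 TPM. Ligands made up most of these low genes: 14 of 19 ligands were below 0.1 TPM, against 1 of 10 receptors (Fzd10) and 3 of 10 antagonists (Dkk1, Dkk2 and Dkk4). These ligands were Wnt1, Wnt2b, Wnt3, Wnt3a, Wnt4, Wnt6, Wnt7a, Wnt7b, Wnt8a, Wnt8b, Wnt9b, Wnt10a, Wnt10b and Wnt16, and none of the 18 genes exceeded 0.32 TPM in any mouse. Low did not mean absent: of the 18 genes, Wnt3 and Dkk4 had no count in any of the 18 libraries, while Wnt9b, Wnt6, Wnt10b and Wnt4 had a count in every one.

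**Figure D1:**
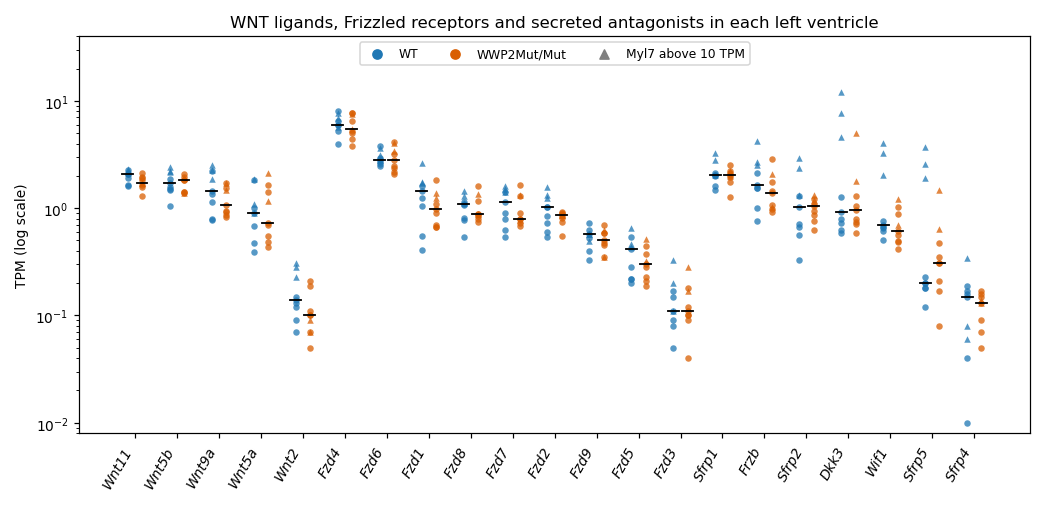
TPM (log scale) of the 21 genes with a median of at least 0.1 TPM in each of 9 WT and 9 WWP2Mut/Mut left ventricles, with black lines at the medians; triangles are the 5 mice with Myl7 above 10 TPM. Fzd4 is the highest at 3.83 to 7.97 TPM, and the triangles of Dkk3 and Sfrp5 lie above the circles.

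Among the ligands, 3 had a median of at least 1 TPM. Wnt11, a ligand of the beta-catenin-independent branch, was at 1.62, 2.09 and 2.32 TPM in WT mice (lowest, median and highest of 9) and at 1.3, 1.71 and 2.11 TPM in WWP2Mut/Mut mice. It was the steadiest of the 9 genes above 1 TPM, with a coefficient of variation of 15.02% over the 18 mice. Wnt5b, which acts mostly without beta-catenin, was at 1.05, 1.71 and 2.44 TPM in WT and 1.37, 1.82 and 2.07 TPM in WWP2Mut/Mut mice. Wnt9a, a ligand of the beta-catenin branch, was at 0.78, 1.45 and 2.5 TPM in WT and 0.83, 1.08 and 1.72 TPM in WWP2Mut/Mut mice. The genotypes overlapped for all 3. Wnt5a and Wnt2 followed at lower levels, 0.39 to 2.14 TPM for Wnt5a and 0.05 to 0.31 TPM for Wnt2.

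Receptor transcripts were led by Fzd4, the receptor through which norrin and WNTs act on endothelial cells. Fzd4 was at 4.00, 6.00 and 7.97 TPM in WT and at 3.83, 5.41 and 7.66 TPM in WWP2Mut/Mut mice. It was the highest of the 39 genes in 16 of 18 mice, and second to Dkk3 in WT 45-1 and WT 43-3. Fzd6, a receptor known for planar polarity, came next at 2.45, 2.82 and 3.81 TPM in WT and 2.08, 2.80 and 4.15 TPM in WWP2Mut/Mut mice. Its lowest and highest values were both in WWP2Mut/Mut mice. Fzd1 was at 0.41, 1.45 and 2.62 TPM in WT and 0.67, 0.98 and 1.84 TPM in WWP2Mut/Mut mice. Its coefficient of variation over the 18 mice was 45.9%, compared with 21.6% for Fzd4 and 21.2% for Fzd6. The other receptors, Fzd8, Fzd7, Fzd2, Fzd9, Fzd5 and Fzd3, had medians between 0.1 and 1 TPM.

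Of the antagonists, Sfrp1 was the steadiest at 1.49, 2.02 and 3.26 TPM in WT and 1.27, 2.02 and 2.54 TPM in WWP2Mut/Mut mice. Frzb, also known as sFRP3, was at 0.76, 1.66 and 4.21 TPM in WT and 0.92, 1.37 and 2.87 TPM in WWP2Mut/Mut mice. Sfrp2, which is also known to aid procollagen processing, was at 0.33, 1.02 and 2.91 TPM in WT and 0.62, 1.05 and 1.33 TPM in WWP2Mut/Mut mice. The WT range of Frzb and of Sfrp2 was wider than the WWP2Mut/Mut range and contained it. Summed over the 10 antagonists the TPM was 4.13 to 27.4, compared with 4.24 to 9.70 for the 19 ligands and 9.39 to 19.1 for the 10 receptors. The antagonists thus had the widest range of the 3 groups, and the next paragraph gives the genes behind it.

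Dkk3, Sfrp5 and Wif1 together ran from 1.33 to 2.28 TPM in 13 mice and from 3.12 to 19.9 TPM in the 5 mice with atrial transcripts. Dkk3 (chr7:112116019-112159482), a divergent DKK family member, was at 12.1 TPM in WT 45-1, 7.71 in WT 43-3, 5 in WWP2Mut/Mut 8-2, 4.56 in WT 84-2 and 1.79 in WWP2Mut/Mut 22-3. No other mouse exceeded 1.29 TPM. Sfrp5 (chr19:42197971-42202252), known as an extracellular inhibitor of WNT5A, was at 3.74, 2.56, 1.47, 1.92 and 0.64 TPM in the same mice and in the same order. No other mouse exceeded 0.47 TPM. Wif1 (chr10:121034004-121100642), which binds WNT ligands through its WIF domain, was at 4.05, 3.29, 1.21, 2.05 and 0.69 TPM. Here the groups overlapped, since WWP2Mut/Mut 1-2, which had 0.52 TPM of Myl7, had 1.03 TPM of Wif1. In all 3 genes WT 45-1, the mouse with the most Myl7, was highest, and WWP2Mut/Mut 22-3, with the least Myl7 of the 5, was lowest of the 5. Between these ends the orders parted: WWP2Mut/Mut 8-2 had the second most Myl7 (213.8 TPM), yet WT 43-3 (156 TPM of Myl7) was above it in all 3 genes and WT 84-2 (87.6 TPM of Myl7) in Sfrp5 and Wif1.

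Over all genes tested, 0.278% (69 of 24804) lay higher in each of the 5 mice than in any of the 13, compared with 3 of the 34 tested members, namely Dkk3, Sfrp5 and Wnt9b. For Wnt9b the levels were 0.19 to 0.32 TPM in the 5 mice and at most 0.18 in the others, a gap of little more than the rounding of the TPM. No member was lower in all 5 mice (0.00403% of all genes), and none of 55 tested genes of a list of other WNT pathway genes was higher in all 5. The 5 mice were picked by Myl7, so no test was made between them and the rest. Other markers moved with them in part: Chad, a cartilage matrix gene also known from valves, was at 4.22, 2.51 and 1.33 TPM in WT 43-3, WT 84-2 and WT 45-1 and at most 0.18 TPM elsewhere. The summed TPM of 6 valve and cartilage markers was 8.03 to 25.4 in the 5 mice and 4.07 to 11.2 in the others. Most of that sum was Cytl1, at 7.93 to 20.8 TPM in the 5 mice and 3.95 to 11.1 TPM in the others. Acan, Col2a1, Col9a1 and Hapln1 stayed at or below 0.2 TPM in every mouse. For 4 adipocyte markers the sum was 0.76 to 5.49 in the 5 mice and 0.02 to 0.54 in the others. For 8 fibroblast markers it was 324 to 589 and 217 to 454. The summed TPM of 6 liver markers was 4.4 to 287 in the 5 mice (median 4.69) and 5.54 to 128 in the others (median 41.5). Alb was at 112.5 TPM in WT 45-1, the mouse with the most Dkk3, Sfrp5 and Wif1, at 0.07 to 0.90 TPM in the remaining 4 and at 0.90 to 45.2 TPM in the others. The part of these markers in the levels of the antagonists was not tested. In bulk tissue, more cells of a type and more RNA per cell cannot be told apart.

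**Figure D2:**
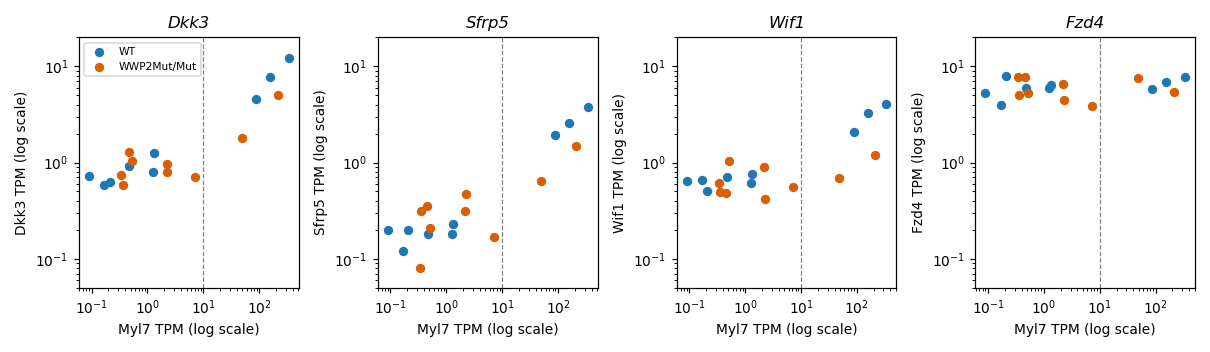
TPM of Dkk3, Sfrp5, Wif1 and, for comparison, Fzd4 against Myl7 TPM, both on log scales, 1 point per mouse (9 WT and 9 WWP2Mut/Mut); the dashed line is 10 TPM of Myl7. To its right Dkk3 is at 1.79 to 12.1 TPM and to its left at most 1.29, while Fzd4 covers 5.41 to 7.72 TPM on the right and 3.83 to 7.97 on the left.

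The comparison of WWP2Mut/Mut with WT mice asks whether loss of the full-length and N-terminal WWP2 isoforms changed the transcripts of the family under AngII. No member was called by edgeR's quasi-likelihood test (0 of 34 tested, adjusted p below 0.05), against 0.00403% (1 of 24804) of all genes, the called gene being Wwp2 itself. Its log2 difference was -1.40 ± 0.157 (edgeR adjusted p = 0.00113), and -1.26 without the 5 mice, where it was no longer called (edgeR unadjusted p = 1.7e-05, adjusted p = 0.205). At an unadjusted p below 0.05 there were 2 members, Wif1 and Wnt16, or 2 of 34, compared with 3.66% of all genes. DESeq2 also called no member (0.0161% of all genes) and had Wif1 and Frzb below an unadjusted p of 0.05, compared with 2.47% of all genes. The median log2 difference (WWP2Mut/Mut over WT) was -0.10 over the 34 members and -0.01 over all genes. Of the members 22 were lower and 12 higher in WWP2Mut/Mut mice, and 51.9% of all genes were lower. With library totals alone in place of TMM scaling 26 were lower and 8 higher (65.4% of all genes lower), and without covariates 18 were lower and 16 higher (48.7%). Without the 5 mice the median over the members was 0.05, with 16 lower and 18 higher, and 48.4% of all genes were lower.

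Among the 9 genes with a median of at least 1 TPM the estimates were small. The receptor Fzd4 had a log2 difference of -0.06 ± 0.105 (SE, 9 mice per genotype; edgeR adjusted p = 1), with an approximate interval, from the SE alone, of -0.27 to 0.14. Sfrp1 was at 0.03 ± 0.112, with an interval of -0.19 to 0.24, and Wnt11 at -0.05 ± 0.141, with an interval of -0.32 to 0.23. These intervals leave out differences of 1 on the log2 scale in either direction. The interval was widest for Sfrp2 (-0.07 ± 0.277, interval -0.62 to 0.47), and the estimate was 0.41 without the 5 mice. The estimates farthest from 0 were those of Fzd1 (-0.35 ± 0.226, interval -0.79 to 0.10) and Frzb (-0.32 ± 0.159, interval -0.64 to -0.01, unadjusted p = 0.0559 and adjusted p = 1 in edgeR). That the interval of Frzb leaves out 0 while its p is above 0.05 shows that these intervals are narrower than the test. Without the 5 mice Fzd1 was at -0.27 and Frzb at -0.13 (edgeR unadjusted p = 0.302 and 0.512). Wnt9a was at -0.24 ± 0.194 with all mice and -0.12 without the 5, and Wnt5b at 0.16 ± 0.143 and 0.34. Fzd6 was at -0.01 ± 0.107 and -0.11. With the gene body coverage fraction of each library added as a covariate Fzd1 was at -0.18, Wnt9a at -0.11 and Frzb at -0.32.

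Wif1 had a log2 difference of -0.78 ± 0.343 (edgeR unadjusted p = 0.0360, adjusted p = 1). Its levels were 0.50, 0.70 and 4.05 TPM in WT mice (lowest, median and highest) and 0.42, 0.61 and 1.21 TPM in WWP2Mut/Mut mice, so the medians were closer than the maxima. Mean Wif1 TPM was lower in WWP2Mut/Mut mice in each of the 4 sequencing lanes, by the least in lane 4 (0.59 against 0.637) and by the most in lane 2 (0.643 against 2.33). These means rest on 2 or 3 mice each. The WT mice of lane 2 were WT 45-1 (4.05 TPM) and WT 39-1 (0.61 TPM), and both WT mice of lane 3 were among the 5. Without the 5 mice the log2 difference was -0.10 (unadjusted p = 0.713 in edgeR), and without WT 45-1 alone it was -0.21. For Dkk3 the corresponding values were -0.73 ± 0.539 with all mice and 0.00 without the 5 (edgeR unadjusted p = 0.194 and 0.985). For Sfrp5 the sign turned, from -0.32 ± 0.662 to 0.84 (edgeR unadjusted p = 0.638 and 0.0656), and without covariates it was -0.94. With all 18 mice and log2(Myl7 TPM + 1) as a further covariate, an alternative chosen after seeing the data, the log2 differences were -0.60 for Wif1, -0.53 for Dkk3 and -0.03 for Sfrp5 (edgeR unadjusted p = 0.0288 and 0.0205 for the first 2). In that fit 4 of 34 members, Wif1, Dkk3, Wnt9b and Wnt16, had an unadjusted p below 0.05, compared with 3.8% of all genes, and none was called. Of the 5 mice 3 were WT and 2 WWP2Mut/Mut, and the levels of all 3 genes in the 3 WT mice were above those of WWP2Mut/Mut 8-2 except for Dkk3 in WT 84-2.

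Wnt16, a ligand best known from bone, had 20 counts in 6 of 9 WT mice and 2 counts in 2 of 9 WWP2Mut/Mut mice, and 10 of the 20 were in WT 84-2. The log2 difference was -3.48 ± 1.11 (edgeR unadjusted p = 0.00571, adjusted p = 0.946), from 22 counts in total. It was -2.16 without WT 84-2, -5.39 without WWP2Mut/Mut 53-1 and -1.86 without the 5 mice (edgeR unadjusted p = 0.186). It was -2.65 with the RNA concentration of WT 43-3 set to the median of the others and -2.69 without covariates. At this depth the 12 other genes tested with a median below 0.1 TPM had at most 445 counts over all 18 libraries, and 5 members were not tested (Wnt3 and Dkk4 with no count, and Wnt3a, Wnt7a and Wnt8a with 1 count each).

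The deposited TPM was also compared without a model, by a two-sided exact permutation test of the mean over all 48620 divisions of the mice into 9 and 9. None of the 16 members that exceeded 1 TPM in 2 or more mice was called, and neither was any of the 12405 genes tested (0%). The smallest p this test can give is 4.11e-05, so after adjustment a call needs at least 11 genes at that p: Wwp2 was at it and had an adjusted p of 0.51 (exact permutation). The absence of calls here therefore says nothing about the members. At an unadjusted p below 0.05 there was 1 member, against 5.38% of all genes. That member was Wnt11, with a mean of 2.03 ± 0.261 TPM in WT and 1.74 ± 0.235 TPM in WWP2Mut/Mut mice (SD, n = 9 each, exact permutation p = 0.0267, adjusted p = 0.761). On the counts, with size factors and covariates, the estimate for Wnt11 was -0.05.

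**Figure D3:**
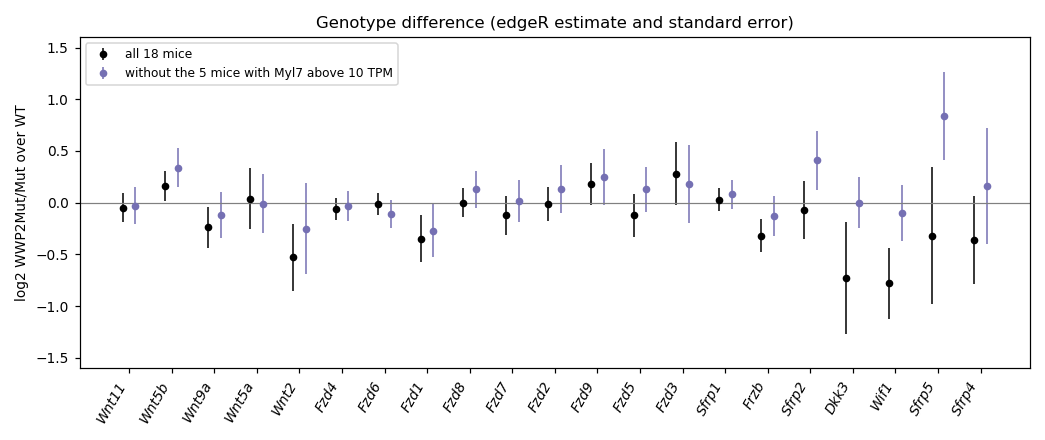
log2 difference between WWP2Mut/Mut and WT mice (points) with its standard error (bars) for the 21 genes with a median of at least 0.1 TPM, over all 18 mice (black) and without the 5 mice with Myl7 above 10 TPM (violet). Dkk3 moves from -0.73 to 0.00 and Wif1 from -0.78 to -0.10, while Fzd4 stays between -0.06 and -0.03.

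Other genes of the pathway were followed through a list of 56 genes, of which 55 could be tested. None was called by edgeR or by DESeq2, and 1 of 55 had an unadjusted edgeR p below 0.05, compared with 3.66% of all genes (DESeq2, 2 of 55 and 2.47%). Of the 55 genes 37 were lower and 18 higher in WWP2Mut/Mut mice, with a median log2 difference of -0.09, while 51.9% of all genes were lower. With library totals alone 44 were lower and 11 higher (65.4% of all genes lower), without covariates 32 and 23 (48.7%), and with gene body coverage added as a covariate 30 and 25, with a median of -0.01 (51.1%). The coverage fraction had a median of 0.0383 in WT and 0.0434 in WWP2Mut/Mut mice, with overlap. Without the 5 mice 30 of 55 were lower, with a median of -0.01, and 48.4% of all genes. The gene below 0.05 in edgeR was Myc, a proto-oncogene and target of beta-catenin, at 0.59, 1.47 and 2.82 TPM in WT mice (lowest, median and highest) and 0.64, 1.03 and 1.73 TPM in WWP2Mut/Mut mice. Its log2 difference was -0.54 ± 0.188 (edgeR unadjusted p = 0.0100, adjusted p = 0.974) and -0.27 without the 5 mice.

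By role, the ligand release genes were led by Wls, the carrier of WNTs to the cell surface (mean 10.9 TPM), and Porcn, which lipidates them (1.5 TPM). The co-receptors and other receptors were led by Kremen1, a partner of DKK proteins (24.5 TPM), and Ryk, a WNT receptor (12.0 TPM). The R-spondin group was led by the receptors Lgr6 (4.26 TPM) and Lgr4 (2.68 TPM), while the R-spondins Rspo1, Rspo2 and Rspo3 had means of at most 0.291 TPM and Rspo4 no count. In the cytoplasm Ctnnb1, beta-catenin itself, was at 121.5 TPM and the kinase gene Csnk1a1 at 32.7 TPM. The nuclear partners were led by Pygo2 (5.14 TPM) and Bcl9l (3.89 TPM), the targets by the cyclin gene Ccnd1 (15.2 TPM) and Myc (1.34 TPM), and the polarity genes by Daam1 (7.33 TPM) and Prickle1 (2.90 TPM). Apart from Myc, the log2 differences of these 13 genes lay between -0.20 and 0.12. Axin2, the negative feedback target most used as a readout of beta-catenin, was at -0.47 ± 0.231 (edgeR unadjusted p = 0.0546, adjusted p = 1; DESeq2 unadjusted p = 0.0433) and is named here after its value was seen. Of the 9 targets 7 were lower (51.9% of all genes) and 2 higher, Tnfrsf19 (0.37 ± 0.263) and Nkd1 (0.15 ± 0.199), with a median of -0.29. Apart from Myc none had an unadjusted edgeR p below 0.05 in this fit. Without the 5 mice the median was -0.10, with 7 lower and 2 higher (48.4% of all genes lower). Without covariates it was -0.30, with 6 lower and 3 higher (48.7% of all genes lower).

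The relation of each member to fibroblast content was examined with a score, the mean z-score of log2(TPM + 1) over 8 fibroblast markers (Col1a1, Col1a2, Col3a1, Pdgfra, Dcn, Lum, Tcf21 and Dpt). The score did not differ between genotypes beyond its spread (0.207 ± 1.12 in WT, -0.207 ± 0.636 in WWP2Mut/Mut, SD, n = 9 each, two-sided exact permutation p = 0.353). On TPM, 15 of the 16 members that exceeded 1 TPM in 2 or more mice rose with it (adjusted p below 0.05 over 12397 genes, 100000 permutations), but so did 53.7% of all genes. The median r was 0.70 over the members and 0.55 over all genes. On TMM-normalized CPM (counts scaled to a common library size by the trimmed mean of M values) the median r over all genes was 0.02, 0.266% of genes (33 of 12397) were related to the score, and 2 members were among them, Frzb and Fzd1.

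Fzd1 had r = 0.92 and rho = 0.864 over the 18 mice (permutation p = 1e-05, the smallest the resampling can give, and 2e-05; adjusted p = 0.00079 and 0.00261). Without the 2 mice farthest from the median score, WT 16-1 and WT 43-3, r was 0.863, within WT mice 0.936 and within WWP2Mut/Mut mice 0.837. On CPM r was 0.79 (permutation, adjusted p = 0.0440). Fzd1 was lowest in WT 16-1 (0.41 TPM), the mouse with the lowest score (-2.065), and highest in WT 43-3 (2.62 TPM), the mouse with the highest score (1.705). Frzb had r = 0.88 and rho = 0.858 (permutation p = 1e-05 and 3e-05; adjusted p = 0.00079 and 0.0031), r = 0.839 without the same 2 mice, 0.901 within WT and 0.832 within WWP2Mut/Mut mice. On CPM its r was 0.83 (permutation, adjusted p = 0.0216). Its lowest and highest mice were those of Fzd1, at 0.76 and 4.21 TPM.

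The next genes, Sfrp1, Fzd2 and Sfrp2, had r of 0.86, 0.81 and 0.78 on TPM and 0.61, 0.62 and 0.68 on CPM, where they were no longer called (permutation, adjusted p = 0.370, 0.349 and 0.184). Fzd6, Wnt11 and Wnt5a had the lowest r on TPM (0.47, 0.55 and 0.53). On CPM the sign of Fzd6 and Wnt11 turned, to -0.20 and -0.22, and Wnt5a was at 0.16. For Dkk3 and Sfrp5, whose values in the 5 mice lay apart from the rest, and for Wif1, whose 4 highest values were in these mice, r is given without the 5 mice: it was 0.73, 0.31 and 0.11, and none was called (permutation, adjusted p = 0.0698, 0.421 and 0.806). Over those 13 mice 3 members were called, Frzb (r = 0.82), Fzd1 (0.88) and Sfrp1 (0.86), against 3.27% of all genes.

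**Figure D4:**
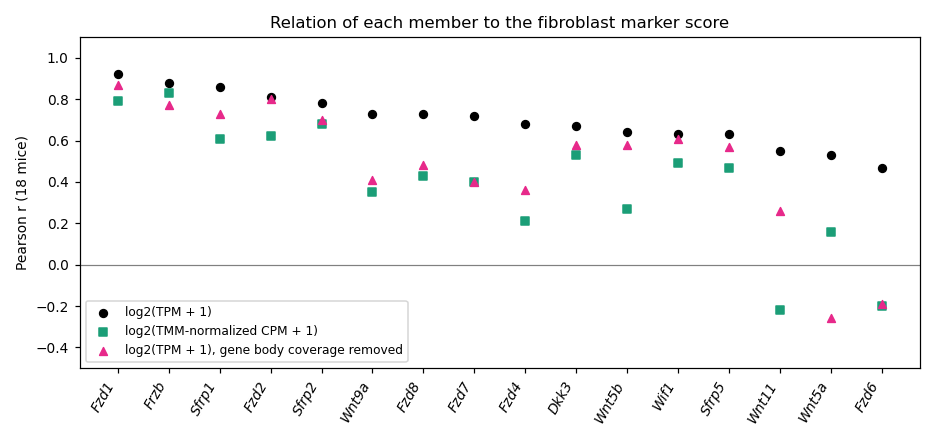
Pearson r over 18 mice between each of the 16 members that exceeded 1 TPM in 2 or more mice and the fibroblast marker score, on log2(TPM + 1) (black circles), log2(TMM-normalized CPM + 1) (green squares) and log2(TPM + 1) with gene body coverage removed (pink triangles). Fzd1 and Frzb stay at 0.77 or above on all 3 scales, while Fzd6 goes from 0.47 to -0.20 and -0.19.

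The deposited sample table also holds a gene body coverage fraction for each library, 0.0288 to 0.0540, and it moved with these values. The fibroblast score had r = -0.676 with it over the 18 mice. On TPM, 10 of the 16 members were lower where the fraction was higher, compared with 53.8% of all genes (6674 of 12405), and none was higher (9.19% of all genes). The strongest was Wnt5a (r = -0.901, rho = -0.924, permutation p = 1e-05 for both, adjusted p = 4.76e-05 and 4.88e-05). Its r was -0.891 without WT 16-1 and WWP2Mut/Mut 52-1, the 2 mice farthest from the median fraction. With the fraction removed from both sides by a linear fit, 5 members were still related to the fibroblast score, Fzd1, Frzb, Fzd2, Sfrp1 and Sfrp2, against 5.4% of all genes (670 of 12397). The r of Fzd1, Fzd2 and Frzb was then 0.87, 0.80 and 0.77, and that of Wnt5a turned to -0.26.

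Lanes held 4 or 5 mice, so both sides were also centred within lane, with permutations within lane, an analysis chosen after seeing the data. The fibroblast score was then related to 9 of the 16 members, against 46% of all genes. Among them Fzd1, Sfrp1 and Frzb had r of 0.90, 0.90 and 0.85 (permutation, adjusted p = 0.00253, 0.00335 and 0.00417). Dkk3, Sfrp5 and Wif1 were not among them. With the gene body fraction 9 members were lower, against 51.4% of all genes, and r for Wnt5a was -0.92 (permutation, adjusted p = 9.64e-05).

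Against the same kind of score over 7 endothelial markers (Pecam1, Cdh5, Kdr, Tie1, Tek, Emcn and Eng), 1 of the 16 members was called, Fzd4, compared with 1.44% of all genes. Fzd4 had r = 0.79 and rho = 0.761 (permutation p = 0.00012 and 4e-04, adjusted p = 0.0248 and 0.0463), r = 0.671 without WWP2Mut/Mut 52-1 and WWP2Mut/Mut 53-1, and r of 0.772 within WT and 0.803 within WWP2Mut/Mut mice. On CPM r was 0.54 and no gene was called, with 693 of 12398 genes below an unadjusted permutation p of 0.05. The r of Fzd4 was 0.79 without the 5 mice, 0.78 centred within lane and 0.74 with gene body coverage removed, where it was not called (permutation, adjusted p = 0.157, 0.0701 and 0.0701). In these 3 settings 0.105%, 0.46% and 0.307% of all genes were called. With 1 mouse left out, where 10000 permutations were drawn, r was 0.73 to 0.84, and with 10000 permutations over all 18 mice, a check added after seeing the data, Fzd4 was still called (adjusted p = 0.0335). The call was lost, at r of 0.73 to 0.80, without WWP2Mut/Mut 53-1, WWP2Mut/Mut 62-1, WWP2Mut/Mut 8-2, WT 16-1 or WT 25-3, and without WWP2Mut/Mut 54-1 there were 4 members of 16, against 13.2% of all genes.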

How the data were processed

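Poly(A) RNA-seq of the left ventricle from 18 mice was grouped by the genotype in the sample titles. The authors aligned reads to m38 with STAR 2.5.2b and quantified Ensembl 89 genes with RSEM 1.2.31, removing rRNA and mitochondrial genes. They deposited expected counts and TPM per gene and mouse, and a sample table that gives the lane, the concentration of the RNA and a fraction describing gene body coverage. The deposited TPM sums to 671770 to 826381 per mouse. The RNA concentration of WT 43-3 is listed as 1.68 (88.6 to 320.9 in the others). Pairs of mice in a group differed beyond sampling noise (chi-square per degree of freedom of at least 15.1), and none was merged.

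Expected counts were rounded and genotype was tested with edgeR 4.0.16 (TMM, quasi-likelihood) in R 4.3.3 over 24804 genes (those whose counts summed above 1). Lane and the centred concentration of the RNA entered as covariates. Adjustment ran over all of these genes by the Benjamini-Hochberg method, and genes were called below 0.05. The quasi-likelihood test gives no SE, so each SE from edgeR is the absolute log2 difference divided by the square root of its F statistic. Intervals are the estimate ± 1.96 SE, an approximation. Correlations used 100000 permutations, and 10000 with 1 mouse left out. DESeq2 1.42.0 and limma 3.58.1 were alternatives. Exact permutation tests and correlations were run in Python 3.11.15 with numpy 2.4.6. Simulated data were used to test edgeR, DESeq2, limma on log2 CPM, the exact permutation test and the Pearson correlation, also with permutations within blocks. The rank correlation, limma on TPM and the removal of gene body coverage were not tested in this way. Genes with a median of at least 1 TPM are named, with any gene below an unadjusted p of 0.05 and the 2 highest of each pathway group. Members and lists were chosen with earlier results of these data known.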

Additional observations from a re-analysis of the deposited data

Results flagged for a closer look

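Of the values of each named gene and of the 3 summed groups, 6 lay far from the rest of their genotype, with a gap to the nearest mouse past Dixon's 95% critical value for 9 mice. For normally distributed values chance does this in about 1 in 20 groups, and 38 groups were examined. The values here were not tested for normality, and the summed groups hold genes also counted singly, so that rate is a rough guide. WWP2Mut/Mut 8-2 gave 3 of them: Dkk3 at 5 TPM (next 1.79), Sfrp5 at 1.47 TPM (next 0.64) and the summed antagonists at 13.5 TPM (next 8.70). This mouse has the most Myl7 of its genotype. Wnt16 was at 0.17 TPM in WT 84-2 (next 0.06) and at 0.02 TPM in WWP2Mut/Mut 62-1 (next 0.01), where the second value is a single count. Wwp2 was at 3.00 TPM in WWP2Mut/Mut 52-1 (next 1.90), below every WT mouse.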

How the results depend on the processing

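No member and no pathway gene was called by genotype by edgeR, DESeq2 or limma under any of the alternatives tried. The exact permutation test, whose smallest adjusted p was 0.51, could not call a member alone and is no support for this. The number of genes called by genotype was 4 with DESeq2, 1 to 2 with 1 mouse left out (2 without WWP2Mut/Mut 1-2 or WT 84-2), and 0 without the 5 mice with atrial transcripts (edgeR, 511 genes below an unadjusted p of 0.05), an alternative chosen after seeing the data. There Wwp2 was at -1.26 on the log2 scale (adjusted p = 0.205), with 6 WT and 7 WWP2Mut/Mut mice. It was called under every other alternative of the edgeR, DESeq2 and limma fits, but not by exact permutation, and was at -1.61 to -1.33 with 1 mouse left out. The members related to fibroblast markers numbered 2 on CPM, 3 without the 5 mice, 5 with gene body coverage removed, 9 centred within lane (both also chosen after seeing the data) and 11 to 16 with 1 mouse left out (32% to 54.9% of all genes, 46% centred within lane). Those related to endothelial markers numbered 0 on CPM, without the 5 mice, with gene body coverage removed and centred within lane, with 0% to 0.46% of all genes, and 0 to 4 with 1 mouse left out (0% to 13.2% of all genes). The cause was not tested. Several uncalled genotype differences changed sign. Fzd6 (-0.01) was at 0.11 without covariates, 0.13 with lane alone, 0.00 with RNA concentration alone, and 0.01 with gene body coverage added or with the concentration of WT 43-3 set to the median. Fzd4 was at 0.07 without covariates and with lane alone. Sfrp1 was at -0.05 with library totals, and at -0.10 and -0.14 in limma on log2(TPM + 1) and log2(TPM + 0.1). Wnt5b was at -0.01 in limma on log2(TPM + 1). Without the 5 mice Sfrp2 was at 0.41 and Sfrp5 at 0.84. With 1 mouse left out the ranges were -0.05 to 0.06 for Fzd6, -0.13 to 0.01 for Fzd4, -0.03 to 0.11 for Sfrp1, -0.14 to 0.00 for Wnt11, -0.23 to 0.25 for Sfrp2, -0.96 to 0.12 for Dkk3, -0.83 to 0.65 for Sfrp5, -0.90 to -0.21 for Wif1 and -5.39 to -2.16 for Wnt16. Dkk3, Sfrp2, Sfrp5 and Wif1 were highest in these ranges without WT 45-1. The r with fibroblast markers turned to -0.22 for Wnt11 and -0.20 for Fzd6 on CPM, and to -0.26 for Wnt5a and -0.19 for Fzd6 with gene body coverage removed. No paired analysis was possible because the genotypes share no replicate numbers.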
